A study of Rattus norvegicus with 102 samples.

Results

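The libraries described here are the CA3 libraries of rats whose identifiers begin with R9 (16 libraries) and the CA3 libraries of rats whose identifiers begin with R1 or R2 (18 libraries, called R1-R2). They were chosen by the subfield and the rat identifier that the labels give, and together are the 34 CA3 libraries of a study that also holds 34 CA1 and 34 dentate gyrus (DG) libraries, 1 of each from 34 male Fischer 344 rats. The rats were young (Y), aged and unimpaired in a spatial water maze task (AU), or aged and impaired (AI). R9 held 5 Y, 6 AU and 5 AI rats, and R1-R2 held 5 Y, 6 AU and 7 AI rats. The labels give no genotype, drug or other agent for any rat. By the study's account of its animals, strain and sex are shared by both series. Where nothing else is said, each library is 1 rat, and p-values measure the spread between rats. What the identifier series stand for is not in the labels. The study worked at 2 sites that obtained rats from different suppliers, and each series has as many young and as many aged rats as it gives for 1 of the sites, so that site, supplier, testing and dissection cannot be told apart here. CA1, CA3 and DG were cut by hand from 1 hippocampus of each rat along its length, the DG was separated along the hippocampal fissure, the subiculum was cut away before CA1 and CA3 were parted, and CA2 was not collected on its own. The question of the comparison was whether CA3 tissue from the series carried the same neighbouring tissues and cell types.

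CA3 is the field of large pyramidal neurons that receive the mossy fibres of the dentate granule cells and send the Schaffer collaterals to CA1. It lies between the hilus of the DG and CA2, which in turn borders CA1. Its outer edge runs into the fimbria, a myelinated fibre tract, where the ventricular surface is covered by ependyma, a sheet of cells with motile cilia, and where the choroid plexus is attached. In bulk tissue, fewer cells of a type and less RNA per cell cannot be told apart, which applies to every marker below.

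The values are reads per gene divided by 1 size factor for each library, called normalized counts. Reads on genes ranged from 6309085 to 14104325 (median 8359719) in the CA3 libraries of R9 and from 5484504 to 15010580 (median 11248027.5) in those of R1-R2. Genes whose CA3 libraries averaged 5 normalized counts or more were tested with limma on log2(normalized count + 1), with Y, AU or AI as a covariate. A log2 fold change (log2 FC) is R9 minus R1-R2 on that scale, which understates the change of genes with low counts, and a gene was called at an adjusted p under 0.05 over all 16471 genes tested. Of these, 3067 genes (18.6%) were called, 1408 higher in R9 (8.55%) and 1659 lower in R9 (10.1%), with a median log2 FC over all genes tested of 0.03. These shares are the background for each count of a marker list below. The log2 FC was above 1 for 315 of the called genes and below -1 for 307. A further measure, that no value of one series reached into the range of the other, held for 24 of the genes tested (0.146%).

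Some libraries stood apart. The CA3 library of the young R9 rat R9876 had a summed normalized count of 22510.3 for 7 genes of meninges and fibroblasts, against at most 1979 in the other 15 R9 libraries. The library of the young R1-R2 rat R2221 had a choroid plexus sum of 14697, the highest ependyma and myelin sums of the 34 libraries, and the lowest CA1 sum. The AI rat R1931 of R1-R2 had the highest red blood cell sum, 4607. Without R9876 and R2221 the number of called genes was 2789 (1257 higher and 1532 lower in R9). With R9876 or R2221 left out singly, the called members were again 7 of the CA3, 7 of the ependyma and 11 of the myelin list, while those of the CA1 list were 3 instead of 4. Without R1931 or without R9781, the CA3 libraries with the fewest genes above 0 (15790 and 16226, against 16972 or more in the others), 6 genes of the CA1 list were called, each higher in R9.

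The markers of CA3 pyramidal neurons were lower in R9. Of the 10 genes on that list, 9 passed the filter, 7 were called lower in R9 and 0 higher, against 10.1% of all genes called lower, and the median log2 FC of the list was -1.01. The summed normalized count of the list ranged from 5949.8 to 17192 (median 13780.0) in R9 and from 19228 to 27505 (median 23624) in R1-R2. The sums did not overlap, as each of the 16 R9 libraries lay below the lowest R1-R2 library. In the DG libraries of the same rats the sums of the CA3 list were 7967 to 20478 (median 16442) in R9 and 11724 to 21634 (median 14579.8) in R1-R2, and both of these ranges overlapped that of the R9 CA3 libraries.

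Among these markers, Grik4, which encodes a high-affinity kainate receptor subunit, ranged from 446 to 1455 (median 878) in R9 and from 1708 to 3709.5 (median 2241) in R1-R2 (log2 FC -1.49 ± 0.13 (SE), adjusted p = 3.98e-10). Its values did not overlap between the series. Cpne4, a calcium-dependent membrane-binding protein of the copine family, ranged from 318 to 3137 (median 1428) in R9 and from 2438 to 10232 (median 4924) in R1-R2 (log2 FC -2.02 ± 0.23 (SE), adjusted p = 1.39e-07). For this gene 15 of the 16 R9 libraries lay below each R1-R2 library, and the other R9 library lay within the R1-R2 range. Dkk3, a secreted protein of the dickkopf family, ranged from 1481 to 2927 (median 1809) in R9 and from 2577 to 5561 (median 4418) in R1-R2 (log2 FC -1.21 ± 0.10 (SE), adjusted p = 1.40e-10), and 14 R9 libraries lay below the lowest R1-R2 value. Homer3, a scaffold of the postsynaptic density, ranged from 158 to 895 (median 427) in R9 and from 424 to 2167 (median 1330.1) in R1-R2 (log2 FC -1.53 ± 0.22 (SE), adjusted p = 3.88e-06), with 8 R9 libraries below each R1-R2 library and the others overlapping. The RNA-binding protein gene Elavl2 (log2 FC -0.99), the adhesion molecule gene Pvrl3 (-0.98) and Bok, a member of the Bcl2 family (-0.97), were called lower as well, with overlap between the series. Elavl2 was 1503 to 2893 in the R1 rats, 556 to 1236 in the R2 rats and 323 to 751 in R9. Pvrl3 was 421 to 617, 139 to 361 and 96.8 to 226 in the same order. For Bok the R1 (230 to 983) and R2 (392 to 1348) rats overlapped. R1 and R2 rats were not compared by a test.

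Nnat, an imprinted gene expressed in CA3 neurons, was not called: it ranged from 1238 to 10955 (median 8161) in R9 and from 3202 to 14703 (median 6931) in R1-R2 (log2 FC -0.32, adjusted p = 0.436). Plagl1, an imprinted zinc finger gene, had a log2 FC of -1.01 (adjusted p = 0.0827) with 6.97 to 172 normalized counts in R9 and 24.0 to 355 in R1-R2. Iyd did not pass the filter, with at most 4.64 normalized counts in any CA3 library.

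**Figure D1:**
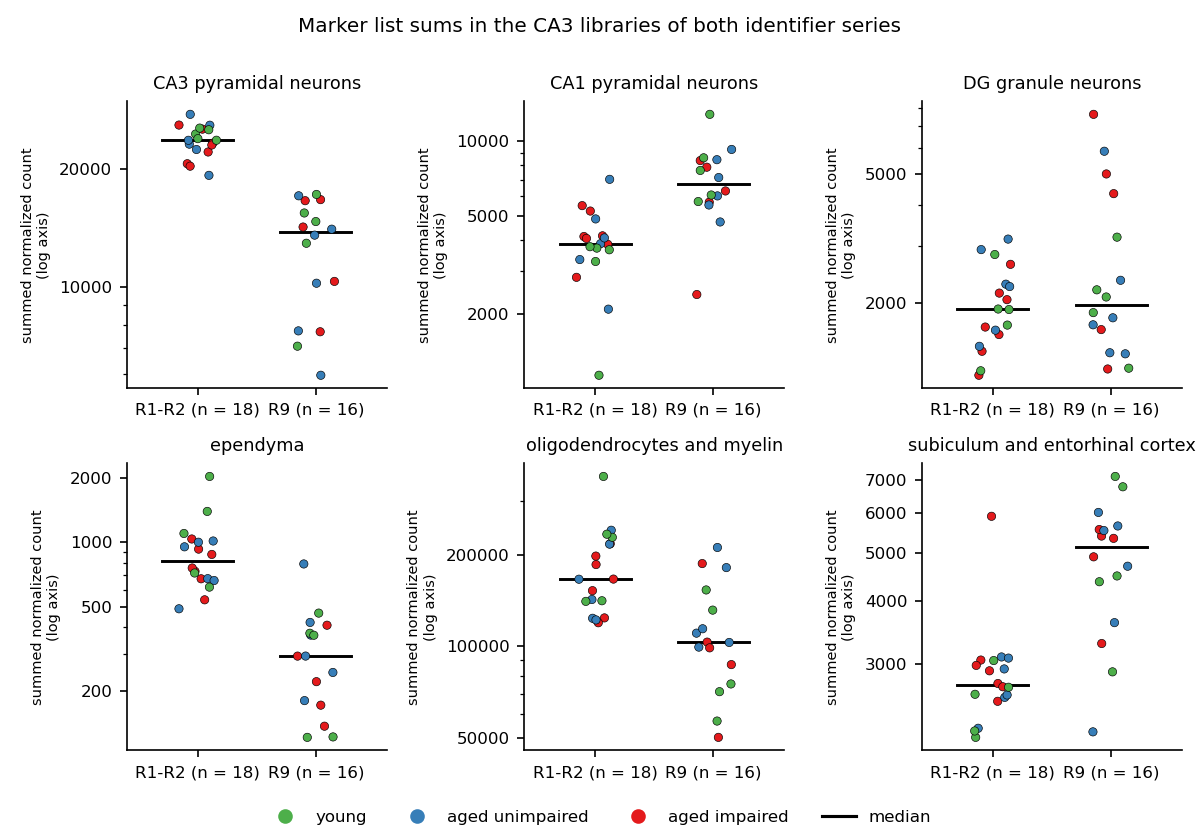
Summed normalized counts (log axes) of 6 marker lists in the CA3 libraries of R1-R2 (18 points) and R9 (16 points); point colour gives young, AU or AI rats and the line is the median of a series. The CA3 sums of the series do not overlap, the ependyma and myelin sums are mostly lower in R9, and the CA1 and subiculum sums are mostly higher in R9.

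CA2 lies between CA3 and CA1, and part of its list was lower in R9. Of the 8 genes, 7 passed the filter and 3 were called, each lower in R9, against 10.1% of all genes called lower. The median log2 FC was -0.38. Amigo2, an adhesion protein of CA2 neurons, ranged from 61.6 to 253 (median 173) in R9 and from 176 to 470.5 (median 323) in R1-R2 (log2 FC -0.86 ± 0.16 (SE), adjusted p = 1.12e-04). Rgs14, a regulator of G protein signalling, ranged from 587 to 1828 (median 1259) in R9 and from 772 to 3636 (median 2066) in R1-R2 (log2 FC -0.69 ± 0.17 (SE), adjusted p = 0.0026), and Cacng5, an AMPA receptor auxiliary subunit, had a log2 FC of -1.19, adjusted p = 0.00116. The ranges overlapped, with 15 R1-R2 libraries above each R9 library for Amigo2 and 12 for Rgs14. Pcp4, a calmodulin-binding peptide, and Ntf3, the neurotrophin NT-3, had positive log2 FCs that did not pass the test (0.40, adjusted p = 0.0605, and 0.75, adjusted p = 0.0544). Necab2 (-0.38, adjusted p = 0.0582) and Map3k15 (0.27, adjusted p = 0.724) were not called, and Avpr1b, the vasopressin 1b receptor, was under the filter with at most 2.02 normalized counts.

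The markers of CA1 went the other way. Of 8 genes on the list 7 were in the table and tested, 4 were called higher in R9 and 0 lower, against 8.55% of all genes called higher, and the median log2 FC was 0.88. The sum over the list ranged from 2406 to 12837 (median 6717) in R9 and from 1136 to 7016 (median 3846) in R1-R2. In 8 of the 16 R9 libraries the sum was above that of each R1-R2 CA3 library, and the highest R9 sum, from R9879, was within the range of the CA1 libraries of R9, 2117 to 18368 (median 11532). Mpped1, a metallophosphoesterase-domain gene used as a CA1 marker, ranged from 987 to 4617 (median 2580.1) in R9 and from 318 to 1959 (median 1490.1) in R1-R2 (log2 FC 0.96 ± 0.20 (SE), adjusted p = 7.65e-04), and 12 R9 libraries lay above each R1-R2 library. Wfs1, an endoplasmic reticulum protein, ranged from 557 to 4107 (median 2179) in R9 and from 410.0 to 4339 (median 927) in R1-R2 (log2 FC 0.88 ± 0.26 (SE), adjusted p = 0.0141), and its ranges overlapped almost wholly. The highest R1-R2 value of Wfs1 was that of R1930, and the next was 2388, in R2189. Gpr161, a receptor of the primary cilium, was called (log2 FC 0.70, adjusted p = 0.0395), but leaving out any one of 16 of the 34 libraries put its adjusted p over the threshold (at most 0.0726, without R9879).

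The other 3 CA1 markers were not called. Nov, a secreted matrix protein, had a log2 FC of 0.72, adjusted p = 0.0594, with 6 R9 libraries above each R1-R2 library and 1 below. Ndst4, a heparan sulfate sulfotransferase, had 1.47, adjusted p = 0.0504. Fibcd1 had 0.02, adjusted p = 0.98, with medians of 562 in R9 and 529 in R1-R2.

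Subicular and entorhinal markers were partly higher in R9. All 6 genes of the list were tested and 2 were called, both higher in R9, against 8.55% of all genes called higher. The median log2 FC was 0.59. The sum ranged from 2193 to 7100.2 (median 5123) in R9 and from 2138 to 5911 (median 2719) in R1-R2, and the highest R1-R2 sum, that of R1931, stood well above the next R1-R2 library. Tshz2, a zinc finger protein of retrosplenial and subicular neurons, ranged from 133 to 1799 (median 1004) in R9 and from 91.8 to 505 (median 242) in R1-R2 (log2 FC 1.75 ± 0.30 (SE), adjusted p = 4.47e-05). Fn1, fibronectin, ranged from 527 to 3998 (median 1546) in R9 and from 486 to 1098 (median 879) in R1-R2 (log2 FC 0.75 ± 0.20 (SE), adjusted p = 0.00681). For each of these genes 12 R9 libraries were above the R1-R2 range. The highest Fn1 value was in R9876, which also had the highest endothelial sum (10486). R9782, R9781 and R9780 had the lowest Fn1 values of R9 and its lowest endothelial sums (1034, 1233 and 1860.5). Whether Fn1 followed vessels or subiculum was not tested. Nts (log2 FC 1.15, adjusted p = 0.287), Etv1 (0.43, adjusted p = 0.0872), Nr4a2 (0.36, adjusted p = 0.142) and Nxph4 (0.26, adjusted p = 0.748) were not called. Without R9865 the number called higher was 4. Of 7 markers of neocortical layers, Rorb, a nuclear receptor of layer 4, was called higher (1.07, adjusted p = 6.03e-06), Lamp5, a membrane protein of cortical and interneuron types, lower (-0.93, adjusted p = 1.44e-04), and 5 were not called. The number called higher was 3, Rorb among them, without R9865, R2175, R2237 or R2238, and the list's median of 0.49 was 0.23 without R1931.

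Most tested granule cell markers of the DG were higher in R9, and their sum was high in a subset of its libraries. Of 9 genes on the list 7 were tested, 5 were called higher in R9 and 0 lower, against 8.55% of all genes called higher. The median log2 FC was 0.83. The sum ranged from 1257 to 7626 (median 1983) in R9 and from 1202 to 3153 (median 1918) in R1-R2. The medians of the sums were close, and 5 R9 libraries (R9875, R9865, R9870, R9781 and R9881) lay above each R1-R2 library, up to 7626 in R9875. Sema5a, which was not called, had the highest mean of the list and led the sum. The medians of Trpc6, Plk5 and C1ql2, given next, were higher in R9. Trpc6, a calcium-permeable channel, ranged from 94.1 to 398 (median 174) in R9 and from 57.8 to 186 (median 97.8) in R1-R2 (log2 FC 0.83 ± 0.20 (SE), adjusted p = 0.00232). Plk5, a member of the polo-like kinase family, ranged from 7.40 to 698 (median 72.1) in R9 and from 0 to 225 (median 23.7) in R1-R2 (log2 FC 2.14 ± 0.60 (SE), adjusted p = 0.0101). C1ql2, a secreted protein of mossy fibre synapses, ranged from 19.8 to 1189.8 (median 228) in R9 and from 6.26 to 583 (median 85.5) in R1-R2 (log2 FC 1.5 ± 0.50 (SE), adjusted p = 0.0297). All 3 ranges overlapped, with 8, 3 and 4 R9 libraries above the R1-R2 range. Dsp (1.0, adjusted p = 0.018) and Stxbp6 (0.48, adjusted p = 0.0247) were called too. Prox1, the homeobox gene that marks granule cells, was not called (0.33, adjusted p = 0.46), nor was Sema5a (-0.03, adjusted p = 0.94), whose sign was positive with edgeR and DESeq2, and Tdo2 and Lct were under the filter. Without R9875 the list had 3 genes called higher (C1ql2 at adjusted p = 0.0585 and Stxbp6 at 0.0532 were no longer called). The call of C1ql2 was also lost without R9781 (adjusted p = 0.0517), R9870 (0.051) or R1930 (0.0528).

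Of the hilar mossy cell list 3 of 4 genes were in the table. Drd2, the dopamine D2 receptor, was called higher in R9 (0.87, adjusted p = 0.0124), Ajap1, an adherens junction protein, lower (-0.48, adjusted p = 6.20e-04), and Nmb was not called (-0.39, adjusted p = 0.659).

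A second view used 100 genes higher in CA1 libraries and 100 genes higher in DG libraries, chosen from the CA1 and DG libraries alone, so that no CA3 value entered the choice. The difference of the mean log2 values of these sets, CA1 minus DG, ranged from -0.93 to 2.87 (median 0.75) in the CA3 libraries of R9 and from -1.29 to -0.05 (median -0.39) in those of R1-R2. It was above 0 in 12 of 16 R9 libraries and in 0 of 18 R1-R2 libraries, and 13 R9 libraries lay above each R1-R2 library. The CA1 libraries, which served in the choice of the genes, ranged from -0.30 to 2.64 in R9 and from 0.29 to 2.84 in R1-R2, and the DG libraries from -2.73 to 1.17 in R9 and from -3.68 to -0.88 in R1-R2. The ranges of the 3 subfields thus overlapped in R9, where 1 DG library, that of R9865, lay above 0, and in R1-R2 the CA3 range overlapped that of DG but not that of CA1. The CA1 set had a mean of 5.66 ± 0.51 (SD) in the 16 R9 libraries and 4.85 ± 0.32 in the 18 R1-R2 libraries, and the DG set 4.91 ± 0.64 and 5.37 ± 0.31. The mean of the DG set was thus lower in R9, while the fixed list of 7 granule cell markers had a positive median. The DG set held Plk5 and C1ql2 of the granule cell list, but also Cpne4, Homer3 and Plagl1 of the CA3 list. Its mean is therefore not a measure of granule cells alone. No test was made on these means.

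**Figure D2:**
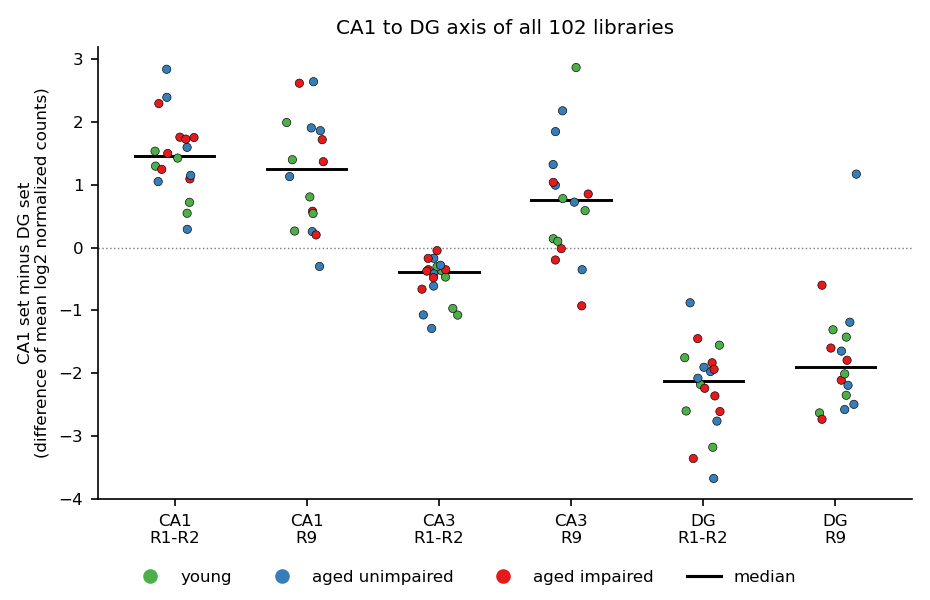
The difference between the CA1 set and the DG set (100 genes each, mean log2 normalized count) in the CA3, CA1 and DG libraries of 34 rats, by subfield and identifier series; point colour gives young, AU or AI rats and lines are medians. CA3 libraries of R1-R2 lie from -1.29 to -0.05, and CA3 libraries of R9 spread from -0.93 to 2.87.

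Of the marker lists, that of the ependyma had the most negative median. Ependymal cells beat their cilia with an axoneme of microtubules, dynein arms and a central apparatus. Of 10 genes on the ependyma list 7 were in the table, 7 passed the filter and 7 were called lower in R9, with a median log2 FC of -1.79. Of all genes tested, 10.1% were called lower. Their sum ranged from 121 to 792 (median 292) in R9 and from 488 to 2042 (median 818) in R1-R2, and 15 of the 16 R9 libraries lay below the lowest R1-R2 library, the exception being R9865 at 792. Foxj1, Rsph1 and Ak7 were not matched in the table.

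Spag17, a protein of the central apparatus, ranged from 0 to 56.6 (median 10.9) in R9 and from 22.0 to 141 (median 68.8) in R1-R2 (log2 FC -3.00 ± 0.44 (SE), adjusted p = 6.19e-06). Hydin, also of the central apparatus, ranged from 23.2 to 278 (median 109) in R9 and from 148 to 757 (median 275) in R1-R2 (log2 FC -1.52 ± 0.23 (SE), adjusted p = 1.22e-05). For both genes 13 R9 libraries lay below each R1-R2 library. Dnah11, a heavy chain of outer dynein arms, ranged from 10.5 to 129 (median 49.3) in R9 and from 85.7 to 297 (median 126) in R1-R2 (log2 FC -1.69 ± 0.27 (SE), adjusted p = 1.69e-05), and Dnai1, an intermediate chain, ranged from 17.8 to 89.9 (median 40.0) in R9 and from 53.8 to 209 (median 88.0) in R1-R2 (log2 FC -1.08 ± 0.18 (SE), adjusted p = 4.21e-05). These 2 genes had 14 and 11 R9 libraries below the R1-R2 range. Tmem212, a membrane protein of ependymal cells, ranged from 1.498 to 78.4 (median 16.9) in R9 and from 37.6 to 196 (median 80.5) in R1-R2 (log2 FC -2.38 ± 0.37 (SE), adjusted p = 1.49e-05), Ccdc153 had a log2 FC of -1.91, adjusted p = 4.17e-07, and Dynlrb2, a dynein light chain of the roadblock type, ranged from 1.62 to 101 (median 25.3) in R9 and from 0 to 243 (median 74.2) in R1-R2 (log2 FC -1.79 ± 0.52 (SE), adjusted p = 0.0131), with 1 R1-R2 library at 0 and overlap of the series.

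Some cilia genes were also among the genes with the most negative log2 FCs of all called genes with a symbol. The 10 most negative log2 FCs were those of Tmem215 (-3.40), Tp73 (-3.12), Spag17, Cfap44 (-2.84), Cfap43 (-2.78), Stoml3 (-2.69), RGD1560386 (-2.66), Hcrt (-2.62), Lrriq4 (-2.60) and LOC103689994 (-2.51). Cfap43, a cilia- and flagella-associated protein, ranged from 0 to 174 (median 46.8) in R9 and from 104 to 644 (median 265) in R1-R2 (log2 FC -2.78 ± 0.38 (SE), adjusted p = 2.44e-06), and 14 R9 libraries lay below each R1-R2 library. Tp73, a p53-family factor of Cajal-Retzius and multiciliated cells, ranged from 0 to 89.2 (median 20.6) in R9 and from 59.8 to 271 (median 118) in R1-R2 (log2 FC -3.12 ± 0.40 (SE), adjusted p = 7.17e-07), with 15 R9 libraries below. Reln and Ndnf, the other Cajal-Retzius markers tested, were not called (0.20, adjusted p = 0.408, and 0.17, adjusted p = 0.69). Tmem215, a membrane protein, ranged from 0 to 176 (median 49.95) in R9 and from 163 to 703 (median 396) in R1-R2 (log2 FC -3.40 ± 0.50 (SE), adjusted p = 6.07e-06), with 15 R9 libraries below each R1-R2 library and 2 of them at 0. Hcrt, which encodes the orexin peptides of the lateral hypothalamus, ranged from 0 to 37.2 (median 1.24) in R9 and from 3.13 to 101 (median 26.7) in R1-R2 (log2 FC -2.62 ± 0.52 (SE), adjusted p = 3.55e-04). Agrp and Trh, 2 other hypothalamic peptide genes, were not called (-0.35, adjusted p = 0.618, and 0.64, adjusted p = 0.214), and Pmch, Oxt and Avp were under the filter, with Pmch at 0 in all 34 CA3 libraries.

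Many genes of motile cilia are controlled by RFX factors, whose X-box sites contain a core that can be written GTTGCTA. Because genes of this kind were among the lowest in R9, the 300 bases around the starts of genes (250 before and 50 after, RefSeq, GRCr8) were searched for these letters on both strands, a motif picked after these sequences had been read. It occurred in 1197 of 33469 promoters (3.58%). Counted by gene, 406 of the 10010 tested genes that matched a promoter by symbol held it in at least 1 promoter (4.06%). Of the 7 ependyma list genes 6 matched, with 12 promoters, and 2 of these genes, Dynlrb2 and Hydin, held it in 1 promoter each. Of the 10 genes with the most negative log2 FC 8 matched, with 12 promoters, and Cfap43 held it, in 3 promoters. The promoters of these 3 genes are shown with the motif in capitals, read on the strand of the gene.
Cfap43, chr1:256653767-256654066 (- strand): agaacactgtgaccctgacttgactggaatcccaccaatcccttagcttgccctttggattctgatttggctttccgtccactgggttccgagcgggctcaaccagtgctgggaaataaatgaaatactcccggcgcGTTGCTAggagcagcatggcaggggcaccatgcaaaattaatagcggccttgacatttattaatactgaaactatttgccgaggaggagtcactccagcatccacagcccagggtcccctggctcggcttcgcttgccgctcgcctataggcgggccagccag
Dynlrb2, chr19:61428830-61429129 (+ strand): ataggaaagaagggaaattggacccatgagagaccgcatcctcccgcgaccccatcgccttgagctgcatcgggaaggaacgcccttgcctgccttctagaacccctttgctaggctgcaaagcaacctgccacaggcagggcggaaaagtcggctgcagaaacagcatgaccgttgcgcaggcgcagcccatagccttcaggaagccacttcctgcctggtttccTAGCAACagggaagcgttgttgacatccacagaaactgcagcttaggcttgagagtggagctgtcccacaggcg
Hydin, chr19:55146216-55146515 (+ strand): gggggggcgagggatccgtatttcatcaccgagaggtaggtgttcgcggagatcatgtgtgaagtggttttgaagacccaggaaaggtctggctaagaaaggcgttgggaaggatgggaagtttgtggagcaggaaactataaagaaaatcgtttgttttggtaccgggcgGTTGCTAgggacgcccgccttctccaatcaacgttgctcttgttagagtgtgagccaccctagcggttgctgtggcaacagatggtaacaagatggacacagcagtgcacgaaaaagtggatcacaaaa
The motif began 113 bases before the start in Cfap43 and 79 before it in Hydin, and in Dynlrb2 it was read as its reverse complement, TAGCAAC, 24 bases before the start. Such a match is a description of the letters and not evidence of a site in use.

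The ependyma genes differed between the series in the opposite direction in the other subfields. In the CA1 libraries 5 of the 7 genes were called higher in R9 (median log2 FC 1.34) and in the DG libraries 6 of the 7 were (median 1.74). Of all 16374 genes tested in a fit of the 3 subfields, 954 were called higher and 613 lower in R9 in CA1. In DG these numbers were 747 and 575. They are the background for each list count in CA1 and DG libraries. In CA1 libraries the ependyma sums were 86.2 to 823 (median 344) in R9 and 67.8 to 302 (median 174) in R1-R2, and in DG libraries 111 to 1179 (median 283) and 76.8 to 173 (median 119.9). Within R1-R2, the CA3 sums (487.9 to 2042) lay above the sums of each CA1 and DG library. Within R9, the ranges of the 3 subfields overlapped. Dnah11, for example, had log2 FCs of -1.69 in CA3, 1.61 in CA1 (adjusted p = 4.35e-04) and 1.61 in DG (adjusted p = 4.24e-04).

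**Figure D3:**
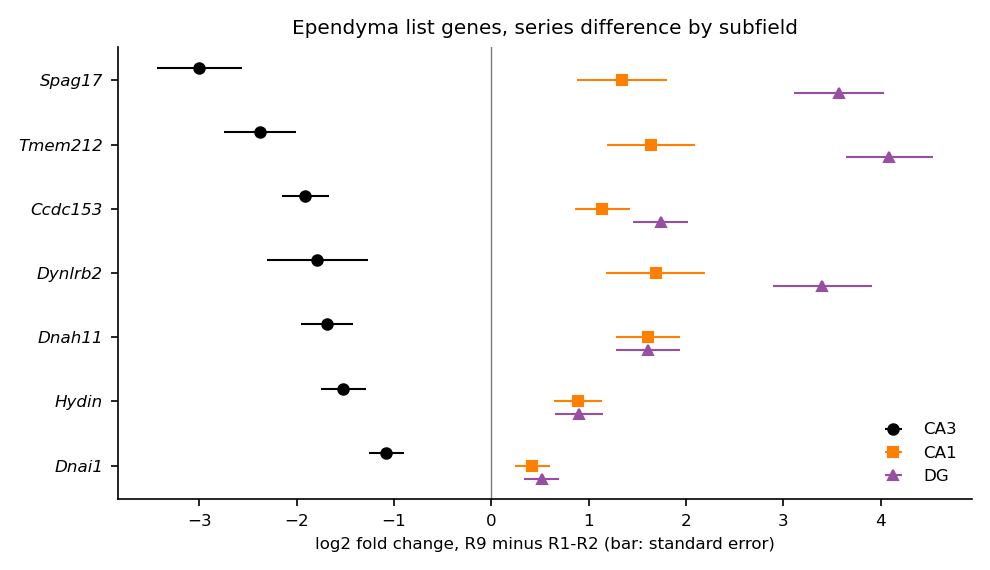
Log2 fold change between identifier series (R9 minus R1-R2, with its standard error) of the 7 ependyma list genes in CA3, CA1 and DG libraries. In CA3 the 7 values are negative, from -3.00 to -1.08, and in CA1 and DG they are positive, from 0.42 to 4.09.

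Myelin genes were lower in R9 in CA3 and higher in the other subfields, as the ependyma genes were. Oligodendrocytes wrap the axons of the fimbria and alveus with myelin. Of 12 genes 11 were called lower in R9 in the CA3 libraries, 0 higher, against 10.1% of all genes called lower. The median log2 FC was -0.76. The sum ranged from 50217 to 211455 (median 103158) in R9 and from 119611 to 362076 (median 166372) in R1-R2, and 11 R9 libraries lay below the lowest R1-R2 library. Mbp, myelin basic protein, ranged from 28686 to 130737 (median 59630.5) in R9 and from 62934 to 211571 (median 95297) in R1-R2 (log2 FC -0.69 ± 0.19 (SE), adjusted p = 0.00882). Opalin, a membrane protein of mature oligodendrocytes, ranged from 224 to 2462 (median 1106) in R9 and from 1087 to 5286 (median 2194) in R1-R2 (log2 FC -1.02 ± 0.22 (SE), adjusted p = 0.00103), and Mag, myelin-associated glycoprotein, ranged from 1189.8 to 5226 (median 2786) in R9 and from 2578 to 10583 (median 4729.8) in R1-R2 (log2 FC -0.88 ± 0.19 (SE), adjusted p = 0.00101). These genes overlapped between the series, with 8, 6 and 7 R9 libraries below the R1-R2 range. Mal, a proteolipid of compact myelin, was not called (-0.42, adjusted p = 0.0974). In the CA1 libraries 8 of the 12 genes were called higher in R9 (median log2 FC 0.62) and in the DG libraries 11 were (median 1.03). Of 6 oligodendrocyte precursor genes 1, Pdgfra, a growth factor receptor, was called higher in R9 (0.30, adjusted p = 0.0286), and the median was 0.06.

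Choroid plexus genes mostly did not pass the test. Of 12 genes on the list 9 were in the table and 8 were tested, and 1 was called, lower in R9, against 10.1% of all genes. The median log2 FC was 0.45. Without R2221 the median was 0.72 and 1 gene was called higher, and without R9876 the median was 0.3. The sum ranged from 94.3 to 2153 (median 448) in R9 and from 58.2 to 14697 (median 224) in R1-R2, and the ranges overlapped. Ttr, transthyretin, the main secreted protein of the choroid plexus, ranged from 35.4 to 2005 (median 359) in R9 and from 0 to 13329.8 (median 101) in R1-R2 (log2 FC 1.79, adjusted p = 0.157), with the highest value in R2221, and its log2 FC was -0.03 with edgeR and -0.02 with DESeq2. Folr1, a folate receptor of the choroid plexus epithelium, was called lower in R9 and ranged from 0 to 54.1 (median 16.6) in R9 and from 21.0 to 223 (median 53.4) in R1-R2 (log2 FC -2.42 ± 0.43 (SE), adjusted p = 8.39e-05). Its direction differed from the positive log2 FCs of Ttr, Kl (0.83), Aqp1 (1.42) and Clic6 (0.57), none of which was called. In CA1 libraries 6 of the 8 genes were called higher in R9, with a median log2 FC of 2.89.

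**Figure D4:**
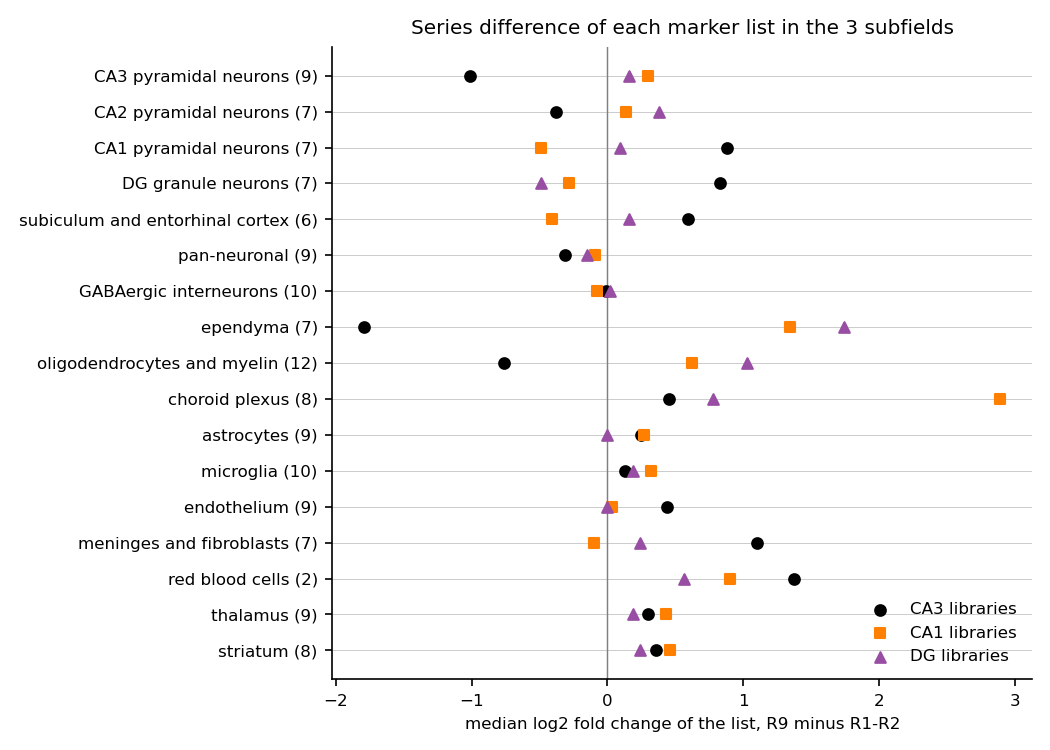
Median log2 fold change (R9 minus R1-R2) of 17 marker lists in CA3, CA1 and DG libraries, with the number of genes tested in CA3 in brackets. In CA3 the ependyma (-1.79), CA3 (-1.01) and myelin (-0.76) lists have negative medians, whereas in CA1 and DG the ependyma and myelin lists have positive ones.

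Of the genes for neurons in general, 4 of 9 were called lower in R9 and 0 higher, against 10.1% of all genes called lower, with a median of -0.31. Nefl, the light neurofilament chain, ranged from 3434 to 6826 (median 5051) in R9 and from 6400.2 to 11891 (median 10069.9) in R1-R2 (log2 FC -0.99 ± 0.09 (SE), adjusted p = 1.29e-09), and 15 R9 libraries were below each R1-R2 library. Syt1, the calcium sensor of synaptic vesicles, ranged from 2729.8 to 5699.7 (median 3974) in R9 and from 5521 to 13194 (median 7486) in R1-R2 (log2 FC -0.93 ± 0.10 (SE), adjusted p = 6.79e-08), again with 15 R9 libraries below. Snap25 (-0.28, adjusted p = 0.11), Rbfox3 (-0.31, adjusted p = 0.254), Stmn2 (-0.27, adjusted p = 0.0917), Tubb3 (-0.17, adjusted p = 0.575) and Camk2a (-0.27, adjusted p = 0.142) were not called. Of 10 genes of GABAergic interneurons 7 were not called, where 18.6% of all genes tested were called. Vip, a peptide of disinhibitory interneurons, was higher in R9 (1.05, adjusted p = 2.58e-04), as was Sst, somatostatin (0.48, adjusted p = 0.0276), and Gad2, a GABA-synthesizing enzyme, was lower (-0.46, adjusted p = 0.014), while Gad1, the other such enzyme, had -0.02, adjusted p = 0.91. Of 5 tested genes of newborn neurons and progenitors, Neurod1 was called lower (-0.62, adjusted p = 0.0259) and Dcx had -0.03, adjusted p = 0.928.

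Astrocyte genes were higher in R9 for 4 of 9 members and lower for 0, against 8.55% of all genes called higher, with a median of 0.25. Gja1, the gap junction protein connexin 43, ranged from 4932 to 7609 (median 5993) in R9 and from 3446 to 5327 (median 4102) in R1-R2 (log2 FC 0.54 ± 0.07 (SE), adjusted p = 2.95e-07), and 14 R9 libraries were above the R1-R2 range. Slc1a3 and Slc1a2, the glutamate transporters GLAST and GLT-1, were also called (0.45, adjusted p = 5.21e-05, and 0.65, adjusted p = 6.33e-04). Gfap, the astrocyte intermediate filament, had a log2 FC of -0.31, adjusted p = 0.122, and Aqp4, the water channel, 0.25, adjusted p = 0.293. Astrocytes are present in each subfield, and the same list had 4 of 9 genes called higher in the CA1 libraries of R9 and 3 of 9 in DG. Microglia had 1 of 10 genes called higher (Ctss, 0.25, adjusted p = 0.0488), near the 8.55% of all genes, with a median of 0.13. Csf1r, the colony stimulating factor 1 receptor, had 0.11, adjusted p = 0.416.

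Vessel and blood genes differed in part. Both red blood cell genes in the table were called higher in R9. Hba-a2, an alpha globin, ranged from 458 to 1979 (median 967) in R9 and from 159.5 to 4473 (median 366) in R1-R2 (log2 FC 1.29 ± 0.28 (SE), adjusted p = 0.00101), and Alas2, the first enzyme of heme synthesis in erythroid cells, ranged from 18.9 to 86.5 (median 51.3) in R9 and from 5.64 to 134 (median 18.1) in R1-R2 (log2 FC 1.46 ± 0.29 (SE), adjusted p = 3.63e-04). The library of R1931 was the highest of the 34 for both genes, and 12 R9 libraries lay above each of the other R1-R2 libraries. Alas2 and Hba-a2 stayed called when any 1 library was left out. Of 9 endothelial genes 0 were called by limma (9 of 9 had positive log2 FCs, median 0.44). The endothelial sum ranged from 1034 to 10486 (median 3557) in R9 and from 1582 to 2878 (median 2339.7) in R1-R2, with 11 R9 libraries above each R1-R2 library and 2 below each of them. The number of endothelial genes called was 4 without R9781 or without R9782 and fewer without any other library. Of 5 mural cell genes 1, Pdgfrb, was called (0.57, adjusted p = 0.0471), and 3 without R9780. The mural sum ranged from 584 to 3396 (median 1352) in R9 and from 624 to 1367 (median 992) in R1-R2, with 8 R9 libraries above and 2 below each R1-R2 library. R9782 (584), R9780 (594) and R9781 (898.5) were again the lowest of R9, against 1138 or more in the others. The R1 rats had 624 to 891 and the R2 rats 947 to 1367. These groups of rats were not compared by a test. In the meninges and fibroblast list 1 of 7 genes was called, Lum, lower in R9 (-1.0, adjusted p = 0.0126), while the list's median was 1.1 and 0.77 without R9876, and 2 genes were called higher without R9780. Igf2, an insulin-like growth factor and the member with the highest mean, had 11809.5 normalized counts in R9876, a median of 195 in R9 and of 144 in R1-R2 (log2 FC 1.1, adjusted p = 0.19).

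Markers of tissue beyond the hippocampus were mixed. Of 9 thalamus genes tested 3 were called higher and 2 lower in R9, against 8.55% and 10.1% of all genes tested. Ntng1, an axon guidance protein, was higher (1.02, adjusted p = 5.37e-05), as were Slc17a6, the vesicular glutamate transporter 2 (0.75, adjusted p = 0.0335), and Prkcd (0.72, adjusted p = 0.021). Plekhg1 was lower (-0.70, adjusted p = 2.20e-06), and so was Tnnt1, slow skeletal troponin T, which ranged from 23.3 to 412 (median 76.2) in R9 and from 108 to 728 (median 357) in R1-R2 (log2 FC -2.11 ± 0.27 (SE), adjusted p = 7.99e-07). Tcf7l2 and Lef1, transcription factors that mark thalamic neurons, were not called (0.30, adjusted p = 0.219, and 0.48, adjusted p = 0.138). Of 8 striatum genes 3 were called higher and 1 lower in R9, against the same shares. Rgs9, a regulator of G protein signalling in striatal neurons, ranged from 75.5 to 273 (median 134) in R9 and from 9.39 to 108 (median 45.9) in R1-R2 (log2 FC 1.58 ± 0.24 (SE), adjusted p = 1.31e-05), with 10 R9 libraries above each R1-R2 library, and Ppp1r1b, DARPP-32, was higher as well (0.45, adjusted p = 0.0101). Pde10a, a striatal phosphodiesterase, was lower (-0.27, adjusted p = 0.0306), and Adora2a, an adenosine receptor of striatal neurons, was not called (0.26, adjusted p = 0.638).

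Lists with low counts gave few calls, where 18.6% of all genes tested were called. Of the septal cholinergic markers, Slc5a7, the choline transporter, was not called (0.70, adjusted p = 0.23), and Chat, the acetylcholine-synthesizing enzyme, was under the filter with at most 15 normalized counts. Chrna3, a nicotinic receptor subunit of the habenula, was higher (1.30, adjusted p = 0.0387) as 1 of 5 habenula genes, and Tac3, neurokinin B, had 0.39, adjusted p = 0.0541. Of 3 pituitary genes tested Pomc was called (1.06, adjusted p = 0.0439), and Prl, prolactin, had at most 4.05 normalized counts in R9 and 315 in R1-R2, with a median of 0 in both (-0.82, adjusted p = 0.339). The calls of C1ql2, Slc17a6, Pde10a, Chrna3, Pomc, Ctss, Pdgfrb and Pdgfra were each lost when any of at least 2 single libraries was left out, as were those of Fgfr3 and Grm5.

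Most genes that respond to activity or to handling did not pass the test, which held for all genes tested too (18.6% called, 10.1% lower in R9). Of 11 immediate early genes Fos was called lower in R9 (-0.83, adjusted p = 0.00589), 10 were not called and the median was -0.08. Fos was also lower in R9 in CA1 (-0.76, adjusted p = 0.0138) and DG (-1.09, adjusted p = 2.50e-04). Arc, a dendritic activity-regulated gene, had 0.13, adjusted p = 0.638. Of 7 heat shock and stress genes Hspa1a, an inducible chaperone, was called lower (-0.97, adjusted p = 0.0226), Dnajb1, a co-chaperone, had -0.01, adjusted p = 0.942, and the median was -0.42 (-0.16 without R9781 and -0.57 at the other end when single libraries were left out). The 9 mitochondrially encoded genes are listed at 0 in each CA3 library and gave no comparison.

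Glutamate receptor genes differed in both directions, while GABA-A receptor subunits were called about as often as other genes. Of 21 glutamate receptor genes tested 3 were higher and 6 lower in R9, against 8.55% and 10.1% of all genes tested, with a median of -0.02. Grm2, a presynaptic group II metabotropic receptor of granule cells, ranged from 268 to 837 (median 533) in R9 and from 0 to 254 (median 132) in R1-R2 (log2 FC 2.42 ± 0.43 (SE), adjusted p = 7.81e-05), and its values did not overlap between the series. Grm8, a group III metabotropic receptor, ranged from 28.4 to 169 (median 56.8) in R9 and from 0 to 35.1 (median 10.6) in R1-R2 (log2 FC 2.70 ± 0.37 (SE), adjusted p = 2.66e-06), with 13 R9 libraries above each R1-R2 library, and Grik3, a kainate receptor subunit, was higher as well (0.71, adjusted p = 0.00884). Besides Grik4, on the list of CA3 markers, those lower included Gria1 (-0.60), Grin2a (-0.62), Grm5 (-0.31) and Grm7 (-0.47). For Grin1, the obligatory NMDA receptor subunit, the log2 FC was -0.41, adjusted p = 0.0777. Of 10 GABA-A receptor subunits 1 was called higher and 1 lower, a share near the 18.6% called among all genes tested. Gabrd, the extrasynaptic delta subunit of granule cells, ranged from 122 to 589 (median 250.4) in R9 and from 23.8 to 206 (median 114) in R1-R2 (log2 FC 1.37 ± 0.21 (SE), adjusted p = 1.49e-05), and Gabra5, an extrasynaptic subunit of pyramidal neurons, ranged from 791 to 2099 (median 1389) in R9 and from 1223 to 5297 (median 2218) in R1-R2 (log2 FC -0.77 ± 0.17 (SE), adjusted p = 8.58e-04). Gabrd had 11 R9 libraries above the R1-R2 range, and Gabra5 had 12 R1-R2 libraries above the R9 range. The other 8 subunits tested were not called.

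The 10 most positive log2 FCs among called genes with a symbol included those of Slc27a2 (3.09), Sycp2l (2.83), Scarf2 (2.82), Nxph3 (2.80), Myh8 (2.72), Itga10 (2.71), Grm8, Nhlh1 (2.66) and Dpt (2.65). Nxph3, a neurexophilin that binds alpha-neurexins, ranged from 33.8 to 1109 (median 475) in R9 and from 18.8 to 109.7 (median 57.4) in R1-R2 (log2 FC 2.80 ± 0.33 (SE), adjusted p = 2.28e-07), and 14 R9 libraries lay above each R1-R2 library. Scarf2, a scavenger receptor, ranged from 29.7 to 635 (median 132) in R9 and from 0 to 44.8 (median 25.7) in R1-R2 (log2 FC 2.82 ± 0.41 (SE), adjusted p = 5.99e-06), with 15 R9 libraries above. Slc27a2, a fatty acid transporter, ranged from 0 to 117 (median 21.2) in R9 and from 0 to 6.14 (median 0.523) in R1-R2 (log2 FC 3.09 ± 0.50 (SE), adjusted p = 2.86e-05), with 9 R1-R2 and 2 R9 libraries at 0. Nhlh1, a neuronal transcription factor, ranged from 0 to 322 (median 27.4) in R9 and from 0 to 43.0 (median 2.45) in R1-R2 (log2 FC 2.66 ± 0.60 (SE), adjusted p = 0.00156), and the series overlapped for it. Of the 10, 6 had a median under 5 normalized counts in R1-R2, and their log2 FCs depend on the pseudocount.

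Among the 24 genes without overlap 15 were lower and 9 higher in R9, and 4 had no symbol. Of these, the following were named after their values were seen. Lhx9, a LIM homeobox factor, ranged from 0.810 to 85.2 (median 54.9) in R9 and from 103 to 195 (median 158) in R1-R2. Neto1, an auxiliary subunit of kainate and NMDA receptors, ranged from 552 to 1939.8 (median 1234) in R9 and from 2245 to 7273 (median 2797) in R1-R2. Slc24a2, a potassium-dependent sodium/calcium exchanger, ranged from 2676 to 5208 (median 4232) in R9 and from 6621 to 13644 (median 9455) in R1-R2. Each of these 3 was lower in R9, like Grik4, with log2 FCs of -2.06, -1.34 and -1.16. Among the higher genes Lzts1, a postsynaptic zipper protein, ranged from 722 to 3271 (median 1224) in R9 and from 269 to 583 (median 492) in R1-R2, and Zmat4, a zinc finger protein, ranged from 195 to 621 (median 355) in R9 and from 62.9 to 191 (median 126) in R1-R2.

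**Figure D5:**
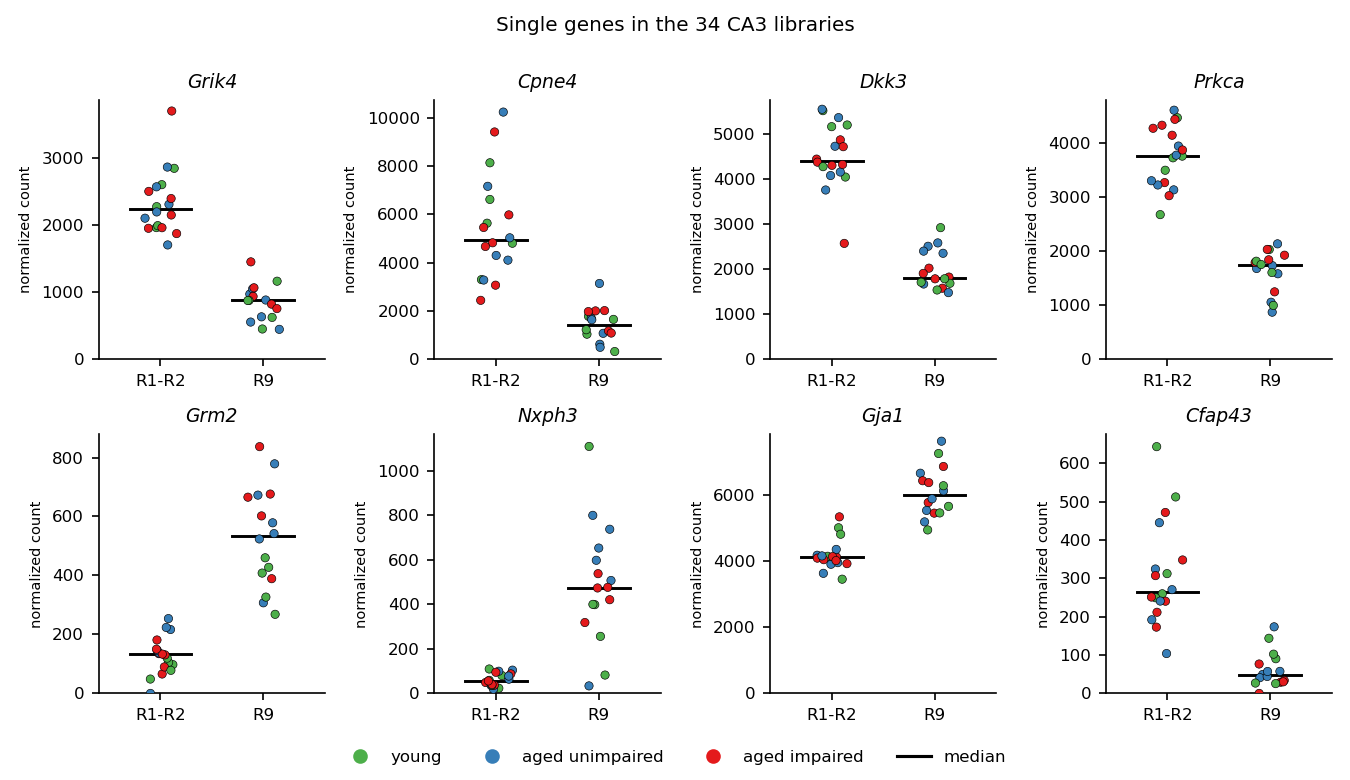
Normalized counts of 8 genes in the 18 R1-R2 and 16 R9 CA3 libraries (axes start at 0); point colour gives young, AU or AI rats and the line is the median of a series. Grik4, Prkca and Grm2 do not overlap between the series, whereas Cpne4, Dkk3, Nxph3, Gja1 and Cfap43 overlap in few libraries.

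The series difference in CA3 was then set against that in CA1 and DG, in 1 fit of the libraries of the 3 subfields. Fitted in this way, 1567 of 16374 genes (9.57%) differed between the series in CA1 and 1322 (8.07%) in DG, against 3873 in CA3. Those in CA1 were 954 higher and 613 lower in R9, and those in DG 747 and 575. This fit took the libraries of a rat as unpaired, and a fit with rat as a replicate block is given below. For 2924 genes (17.9%) the CA3 difference itself differed from the mean of the other subfields, 1293 in the positive direction (7.90%) and 1631 in the negative (9.96%). Of the 3036 genes called in the fit of CA3 alone and tested in both fits, 1937 had this difference called in the same direction, although these fits share their CA3 libraries. The smallest adjusted p in the negative direction belonged to Prkca, protein kinase C alpha, at -1.52 (adjusted p = 3.32e-17), which in CA3 ranged from 870.3 to 2135 (median 1742) in R9 and from 2676 to 4607 (median 3766) in R1-R2 and did not overlap. It was followed by Dkk3 (-1.34, adjusted p = 2.94e-16) and RGD1564149 (-4.92, adjusted p = 2.70e-15). In the positive direction Adcy2, an adenylyl cyclase, had 0.99 (adjusted p = 6.30e-16), Ngef, a guanine nucleotide exchange factor, 1.71 (adjusted p = 1.65e-14) and Grb10, an imprinted adaptor protein, 1.53 (adjusted p = 2.27e-14). In CA3 Adcy2 ranged from 1430.0 to 2331 (median 1813) in R9 and from 765 to 1341 (median 1101) in R1-R2 and Grb10 ranged from 341 to 746 (median 542) in R9 and from 154 to 334 (median 242) in R1-R2, without overlap.

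By list, this difference of differences was called for 7 of 9 CA3 markers (7 negative, median -1.39), 7 of 7 ependyma genes (7 negative, median -3.33), 12 of 12 myelin genes (12 negative, median -1.51), 4 of 7 CA1 markers (4 positive, median 1.13) and 5 of 7 granule cell markers (5 positive, median 1.17). In CA1 libraries 4 of 9 CA3 markers were called higher in R9 and 0 lower, among them Homer3 (0.64, adjusted p = 0.0159), and 2 of 7 CA1 markers, Nov (-1.04, adjusted p = 0.00402) and Ndst4 (-1.54, adjusted p = 0.00396), were lower. In DG libraries 0 of the 9 CA3 markers and 0 of the 7 granule cell markers were called. Red blood cell genes, which were higher in R9 in CA3, were not called for a difference from the other subfields (0 of 2), and both were also higher in R9 in CA1.

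The CA3 difference was present in young and in aged rats. With young rats alone 196 genes were called, with AU rats alone 627 and with AI rats alone 197, and 74, 209 and 86 of these were higher in R9. Of the 3019 genes called over all rats and tested in each status, 2985 (98.9%) had the same sign in Y, AU and AI rats, which is a description since these are the same libraries. Grik4 had log2 FCs of -1.61, -1.65 and -1.23 in Y, AU and AI rats, Grm2 2.10, 2.78 and 2.34, and Spag17 -3.00, -2.86 and -3.13.

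Whether the effects of age and of impairment in CA3 differed between the series was tested with interaction terms. For age (aged against young) limma called 0 of 16471 genes (0%), with 294 at an unadjusted p under 0.05, and edgeR and DESeq2 called 0 (422 and 455 at an unadjusted p under 0.05). For impairment (AI against AU) limma called 0 (0%), with 408 at an unadjusted p under 0.05, and edgeR and DESeq2 again called 0 (440 and 535). Within each series alone limma called 0 genes for age (365 at an unadjusted p under 0.05 in R9 and 286 in R1-R2) or for impairment (605 and 298). These counts do not show that the effects were alike. Genes with the smallest p for age, none of them called, were Cdr2 (0.90, adjusted p = 1) and Lrrn4cl (-2.48, adjusted p = 1), and for impairment Calhm1 (3.26, adjusted p = 0.993) and Adgb (-2.89, adjusted p = 0.993), where the value is the effect in R9 minus that in R1-R2.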

How the data were processed

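Poly-A RNA of 3 subfields of 34 rats had been sequenced on an Ion Proton. The authors aligned the reads to rn5 with TopHat2 and Bowtie2, counted them per gene with featureCounts 1.4.4 and divided the counts by DESeq2 1.10.1 size factors. The deposited values are this normalized signal, in 1 table of 26689 genes (4719 without a symbol) by 102 libraries, with 0 other columns of per-sample values. Values divided by each library's step were whole (100%, tolerance 1e-06), so reads were recovered, except in 3 libraries of CA1 and DG, which were left out of the count tests on the second fit.

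Groups were taken from the labels and series from the rat identifiers. limma 3.58.1 (R 4.3.3) with a trended prior was fitted to log2(normalized count + 1) of genes with a mean of at least 5, with Benjamini-Hochberg adjusted p-values. The fits were R9 against R1-R2 in CA3 with status as a covariate, the CA3 difference minus the mean of those in CA1 and DG, and the series by age and series by impairment terms. The same rat number marks the same animal in the 3 subfields. edgeR 4.0.16 and DESeq2 1.42.0 on recovered reads, other pseudocounts, filters and scalings, subsets of rats and single libraries left out were alternatives. Fits were tested on simulated data.

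Named genes were the 10 with the largest log2 FC in each direction, in each list the member with the highest mean and the 2 with the smallest adjusted p, for each other fit the 3 of smallest adjusted p per direction, and members of the CA1, CA3, DG, thalamus, ependyma and choroid plexus lists. Other genes were named after their values were seen. Some genes that the rule names are not reported here. The members and lists were chosen with earlier results of these data known. Promoter sequences are from RefSeq (GRCr8). List sums are led by the most abundant members.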

Additional observations from a re-analysis of the deposited data

Results flagged for a closer look

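Single CA3 libraries were far from the others of their group in status and series. The gap to the nearest library was large against the range of the group by Dixon's criterion, for 198 groups looked at, and chance alone flags about 1 in 20 groups. No cause was tested.

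The young R9 rat R9879 had a CA1 minus DG difference of 2.87, against at most 0.78 in its group. The young rat R2221 had a CA1 sum of 1136 normalized counts and a choroid plexus sum of 14697. The young rat R9876 had sums of 2166 for striatum, 10486 for endothelium and 22510.3 for meninges.

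Among AU rats, R9865 had sums of 5872 for granule neurons, 882.9 for mossy cells and 121.7 for septal cholinergic neurons, R9869 had 4598 for neocortex layers and 6624 for immediate early genes, R9862 had 1979 for meninges, and R2237 had 40897 for glutamate receptors.

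Among AI rats, R1931 had sums of 5911 for subiculum, 95.02 for habenula, 1942 for newborn neurons, 4607 for red blood cells and 23630.3 for GABA-A receptors. The GABA-A sums of the other R1 rats, R1922 (14152), R1923 (12097) and R1930 (13006), also lay above those of the R2 rats (at most 9339). R9781 had 3292 for subiculum, 84.9 for pituitary, 1233 for endothelium and 898.5 for mural cells. R9870 had a CA2 sum of 3589, R9872 had 1631 for choroid plexus and 579.3 for meninges, R2233 had 451.7 for pituitary and R2238 had 15540.5 for microglia.

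The series difference of 2924 genes in CA3 differed from the mean difference in CA1 and DG by the limma test of that term. Among them the difference was 0.99 for Adcy2, 1.71 for Ngef, 1.53 for Grb10, -1.52 for Prkca, -1.34 for Dkk3 and -4.92 for RGD1564149, on the log2 scale.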

How the results depend on the processing

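For the series difference in CA3, 3067 genes were called, and other pseudocounts, filters, TMM scaling, no status covariate and the fit of all 3 subfields gave 2896 to 3873, with edgeR at 3176 and DESeq2 at 3662. Fewer rats gave fewer calls: 196 in young, 627 in AU, 197 in AI and 1974 in aged rats. Leaving out each of the 34 libraries gave 2778 to 3782, and leaving out R9876 and R2221 together, chosen after seeing the data, 2789. For the difference against CA1 and DG (2924), edgeR gave 3123 and DESeq2 3341, CA1 alone 2386 and DG alone 2732. With each rat as a replicate block (paired by rat number) 3249 were called, 2896 of them in both fits, and the 6 genes named from that fit kept their calls. Leaving out each of 15 rats gave 2685 to 2882. The age and impairment terms stayed at 0 when each library was left out (0 to 0), but the age term gave 1 with no filter on low values.

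Of the values for single reported genes under the alternatives, 957 kept direction and side of the threshold, 144 lost the call, 16 gained it and 10 turned direction. Sema5a turned to 0.10 with edgeR, 0.10 with DESeq2, 0.46 in AI and 0.03 in aged rats. Gad1 turned to 0.12 in young rats, Dcx to 0.25 in AU rats, Ttr to -0.03 with edgeR and -0.02 with DESeq2, and Dnajb1 to 0.06 in young and 0.03 in AI rats. None of these genes was called, and the cause was not tested. Depth limits the genes with few reads: medians of 0 or near 0 in one series make the fold change depend on the pseudocount. Site, supplier, dissection and series cannot be told apart.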
